A study of Mus musculus with 2 samples.

Results

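The 10 genes described here encode subunits of the Polycomb repressive complexes and are together called core subunits here. Of PRC2 they are Ezh1, Ezh2, Eed and Suz12 and the accessory subunits Jarid2, Mtf2, Phf1 and Phf19, and of PRC1 Rnf2 and Ring1. They were taken as every gene probe present on both arrays whose RefSeq accession maps to one of these symbols, which gave 14 of 39411 probes and 10 of 20823 gene symbols. Of the 14 probes, 13 were well above background on both arrays, and every one of the 10 genes had at least 1 such probe.

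PRC2 trimethylates lysine 27 of histone H3, a mark of silenced chromatin, and PRC1 attaches ubiquitin to histone H2A. In ES cells both complexes sit on the promoters of developmental regulators, many of which also carry an activating mark and are called bivalent. The BAF chromatin remodelling complexes contain the actin-related proteins Baf53a or Baf53b. Their ES cell form is reported, through its core subunit Brg1, to take part in regulating PRC2.

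Gene expression was compared between 2 conditions of Baf53a conditional knockout (cKO) ES cells, with 1 array each. Both groups share the same background: a line grown from 1 clone of E14-derived mouse ES cells, with small deletions in both Baf53a alleles made by CRISPR/Cas9 and a Baf53a cDNA that Tet switches off. Cells received an expression vector for Myc-tagged Baf53a (Baf53a-expressing) or Myc-tagged Baf53b (Baf53b-expressing), the neuronal form, with 48 h before the dishes were divided, and were then kept in 1 μg/mL Tet for 6 days in medium with LIF. The comparison asks whether exchanging one Baf53 form for the other alters transcript levels.

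With 1 array per condition, none of the differences below has a replicate check, and they are given as values without a test. Levels are log2 signals with the 75th percentile of each array set to 0, and differences are Baf53b- minus Baf53a-expressing cells on that log2 scale. The error given after a difference is the one that the image software assigns to the spot signals, carried through to the difference. It does not cover variation between cultures. As a second yardstick, all probes measured on both arrays were divided by brightness into 5 equal groups, and each member was set beside the median and SD of all probes in its own brightness group.

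The arrays shared 1 slide and 1 scan. The 75th percentile was a signal of 1161 for Baf53a-expressing and 1128 for Baf53b-expressing cells, and no spot was saturated. The labels were checked with Actl6b, the gene of Baf53b. It stood at -3.24 in Baf53b-expressing cells, at least 14.5-fold above Baf53a-expressing cells, where its probe did not clear the background. Actl6a, the gene of Baf53a, stood at 1.71 in Baf53a- and 1.67 in Baf53b-expressing cells, a difference of -0.04 ± 0.20. Its probe thus showed no excess of Baf53a transcript beyond the software error, and the check bears on the Baf53b label alone.

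None of the 10 core subunits differed 2-fold between the arrays. Their differences ran from -0.32 for Phf1 to 0.21 for Phf19, with a median of -0.05 against a median of -0.0032 over all 16608 genes measured. Of all genes, 0.193% were at least 2-fold apart, and of all probes 0.253%, so 0 among 10 genes and 0 among 13 probes were close to that background. A difference of less than 0.2 was found in 8 of the 10 members and in 80.5% of all genes. In bulk RNA of this kind, fewer cells with a transcript and less of it per cell cannot be told apart.

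Suz12 and Phf19 were higher in Baf53b-expressing cells and the other 8 members lower, whereas 49.1% of all genes were higher. This split depended on the scaling, since Eed and Jarid2 turned to the higher side with quantile normalization and with cyclic loess, which gave 4 members higher. Centring on the median left 2 members higher but lowered the share of all genes that were higher to 35.6%.

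The genomic context of these genes was described from RefSeq sequence of assembly GRCm38.p6, in windows of 300 bases that run from 250 before to 50 after the transcription start. The table held 12 windows for the 10 members and 32851 in all. The windows of the core subunits were rich in CpG, with a median of 27 CpG per window against 7 over all windows and a median GC content of 64.3% against 52.7%. At least 20 CpG were present in 10 of the 12 member windows, against 26.5% of all windows. The exceptions were Eed, with 17 CpG, and the second window of Mtf2, with 2.

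An E2F match, meaning TTTGGCGC, TTTCGCGC, TTTCCCGC or TTTGCCGC on either strand, lay in the windows of Ezh2, Phf19 and Suz12. E2F factors are known for switching on genes of the cell cycle. Such a match was present in 2.26% of all windows and in 5.15% of windows with at least 20 CpG. A match of letters is a description and no evidence of binding. Suz12 and Phf19 were higher in Baf53b-expressing cells and Ezh2 was lower, and a link between the matches and the differences was not tested. The 3 stretches are shown because they hold these matches. Each is 30 bases, written 5′ to 3′ along the strand of the gene, with the match in capitals.
Phf19, chr2:34914166-34914195, minus strand, match 208 bases before the start: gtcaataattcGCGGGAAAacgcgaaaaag
Suz12, chr11:79992876-79992905, plus strand, match 219 bases before the start: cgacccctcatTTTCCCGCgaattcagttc
Ezh2, chr6:47595009-47595038, minus strand, match from base 4 of the transcript: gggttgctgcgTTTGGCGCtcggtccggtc

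Other motifs divided the members differently. CCAAT, the box bound by NF-Y, lay in 6 of the 12 windows, those of Eed, Ezh2, Jarid2, Mtf2 and Suz12. It lay in 37.4% of all windows and in 32.9% of those with at least 20 CpG. The GC box GGGCGG lay in 8 windows of 7 genes, with Eed, Ezh1 and Ezh2 lacking it, against 35.7% of all windows and 80.9% of those with at least 20 CpG. Neither the STAT motif TTCNNNGAA nor the octamer ATGCAAAT occurred in a member window, against 8.30% and 1.74% of all windows. In windows with at least 20 CpG the shares were 4.61% and 0.873%. The absence says only that these letters are not in these windows.

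Ezh2 and Ezh1 are the alternative methyltransferases of PRC2, Ezh2 the more active enzyme and the one typical of dividing cells. The Ezh2 probe stood at 2.22 in Baf53a- and 2.15 in Baf53b-expressing cells, from signals of 5401 and 4992, a difference of -0.07 ± 0.20. This lay almost at the median of the brightest group, where all probes together were at -0.06 with an SD of 0.108. Ezh2 was lower in every one of the 11 ways of processing the signals, by between -0.12 and -0.02. It was read by 1 probe, so changing the filter on dim probes, the detection flag or the choice of probe left its value as it was. Keeping outlier spots or using the authors' table, which divides the same signals by 1 number per array, hardly moved it. These ways are therefore no separate checks of its sign.

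Ezh1 was read by 3 probes of the same transcript. The first stood at 0.89 and 0.87, a difference of -0.02 ± 0.20, and the second at -0.95 and -0.98, a difference of -0.03. Both therefore showed nearly equal signal on the 2 arrays. The third probe was far dimmer, with signals of 7.84 and 12.4, and carried the flag for well above background on the Baf53b array alone. There it stood at -6.51, near the lowest level well above background on that array, -6.85. This was 1.51-fold above the lowest such level on the Baf53a array. The difference of this probe was 0.70 ± 0.56, an error that the 1.51-fold leaves out. Without a filter on dim probes, that probe entered the mean and turned the difference of Ezh1 from -0.02 to 0.22.

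Eed and Suz12 complete the catalytic core of PRC2: Eed reads the methyl mark that the complex makes, and Suz12 holds the complex together and anchors its accessory subunits. The Eed probe was at 5.44 in both conditions, from signals of 50477 and 48905, a difference of -0.0038. Eed was thus among the members with the smallest difference, but it came to 0.07 with quantile normalization and 0.06 with cyclic loess. The Suz12 probe stood at 2.24 in Baf53a- and 2.35 in Baf53b-expressing cells, a difference of 0.11 ± 0.20, or 7.87% more signal. Suz12 lay 0.17 above the median of its brightness group, which is more than the SD of 0.108 there, yet within the software error of its own spots. Suz12 was higher in every processing, by between 0.06 and 0.16. As for Ezh2, it was read by 1 probe, and several of these ways left its value as it was.

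**Figure D1:**
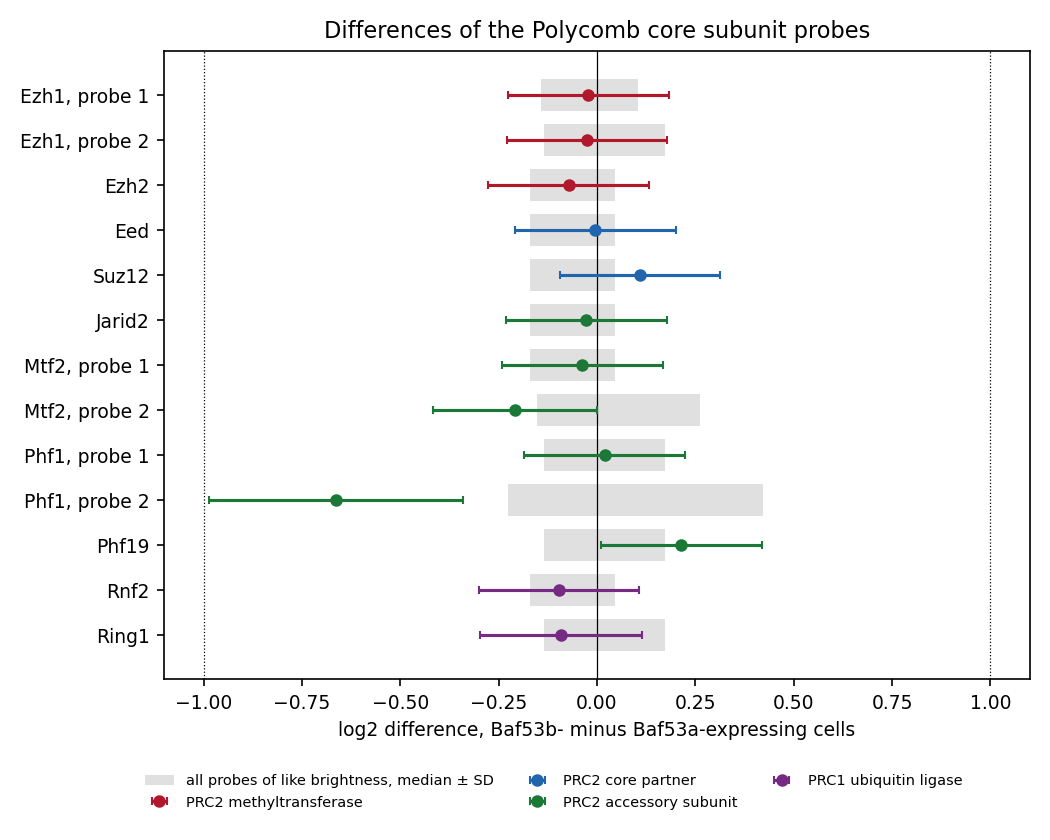
Log2 difference of each core subunit probe measured on both arrays (x axis, Baf53b- minus Baf53a-expressing cells; y axis, probe). Points are differences with the software error as bars, grey bars are the median ± SD of all probes in the same brightness group, and dotted lines mark 2-fold; every point lies between the dotted lines, and the second Phf1 probe, at -0.66, is farthest from 0.

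The accessory subunits decide which form of PRC2 is built. Jarid2 marks one form, and Mtf2, Phf1 and Phf19, the 3 Polycomb-like proteins, mark the other. Jarid2 stood at 3.40 and 3.38, a difference of -0.03, and like Eed was higher under quantile normalization and cyclic loess. Its probe lay 0.04 above the median of its brightness group.

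Mtf2, the Polycomb-like protein known as the most abundant in ES cells, had a bright probe at 3.85 and 3.81, a difference of -0.04. A second probe, which is annotated to another transcript of the gene, was dimmer at -3.34 and -3.55, a difference of -0.21 ± 0.21. The bright probe lay within the SD of its brightness group and the dim probe did not, at 0.26 below the median of all probes as bright. Their mean gave Mtf2 a difference of -0.12 ± 0.15, against -0.04 where only the brightest probe was kept.

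The probes of Phf1 disagreed. The brighter stood at -2.14 and -2.12, a difference of 0.02 that matched the median of its brightness group. The dimmer, with signals of 22.4 and 13.7, stood at -5.70 and -6.36, a difference of -0.66 ± 0.32, or 1.58-fold lower in Baf53b-expressing cells. Among the 13 member probes measured on both arrays, this was the widest gap and the only probe in the dimmest group, where the SD of all probes was 0.324. The mean of -0.32 ± 0.19 for Phf1 therefore rested on the dim probe, and the difference was 0.02 without it and -0.03 after normexp background correction.

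Phf19 was the member with the highest difference. Its probe stood at -2.16 in Baf53a- and -1.95 in Baf53b-expressing cells, from signals of 260 and 293, a difference of 0.21 ± 0.20 or 16.0% more signal. It lay 0.19 above the median of its brightness group, where the SD was 0.154. Phf19 was higher in every processing, by between 0.16 and 0.21. It too was read by 1 probe, and several of these ways left its value as it was. With the dim Phf1 probe, Phf19 was the member whose difference exceeded its software error.

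Rnf2 (Ring1B) and Ring1 (Ring1A) are the ubiquitin ligases of PRC1, and each PRC1 complex contains one of them. Rnf2 stood at 2.80 and 2.70, from signals of 8062 and 7323, a difference of -0.10. It lay 0.03 below the median of its brightness group and was lower in every processing, by between -0.15 and -0.05. Rnf2 was also read by 1 probe, and several of these ways left its value as it was. Ring1 was dimmer, at -2.53 and -2.62, a difference of -0.09 ± 0.21, which became 0.01 after normexp background correction. Both ligases therefore differed by less than the software error.

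Across the 13 probes, 3 were higher and 10 lower after the exchange to Baf53b, while 6 lay above and 7 below the median of their own brightness group. The bright probes of the array were shifted slightly down as a whole, with medians from 0.10 in the dimmest to -0.06 in the brightest group, and 6 of the 13 member probes were in the brightest. Of the 13, 9 lay within 1 SD of the median of their brightness group, against 74.0% of all probes. The exceptions were the probe of Suz12, the dim probes of Mtf2 and Phf1, and the probe of Phf19. The software error covered the difference of 11 of the 13. That error was 0.204 to 0.209 for every one of these probes but the dim Phf1 probe, at 0.323. A difference below 0.2 was found in 80.5% of all genes, so the count does not set the members apart. The share of all probes covered by their own software error was not computed. Spots of the same probe on an array also differ. Over the 324 probes printed many times, the spot-to-spot SD of a difference was 0.274 in the dimmest brightness group and 0.0590 in the brightest, which holds Suz12, and 0.0799 in the middle group, which holds Phf19.

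**Figure D2:**
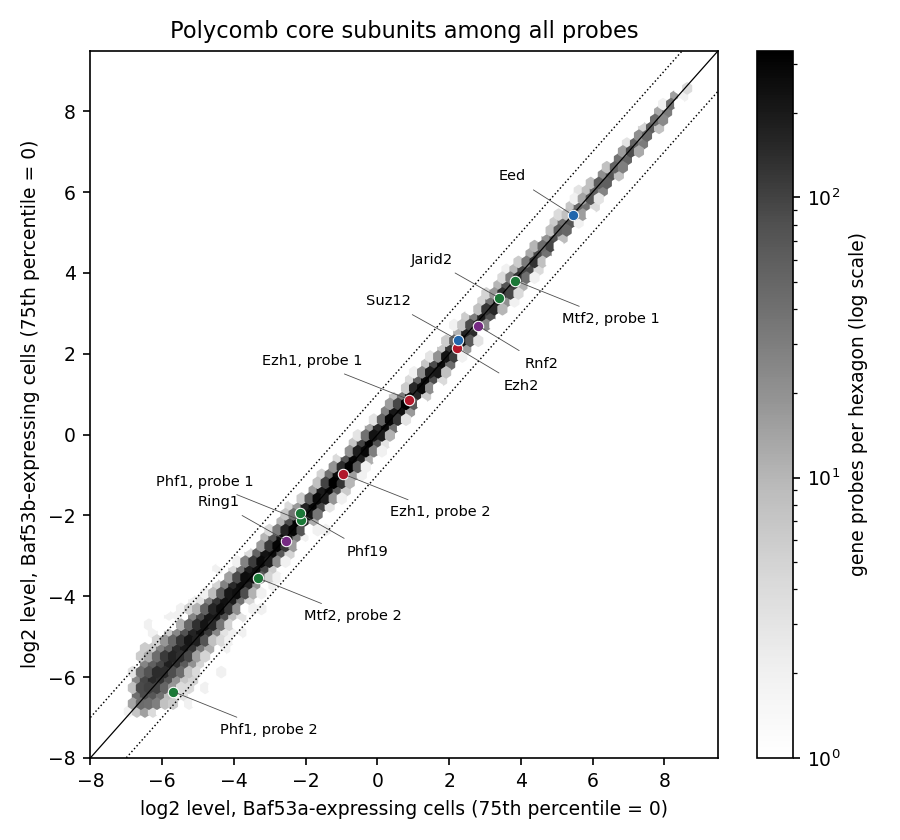
Log2 level in Baf53a-expressing (x axis) against Baf53b-expressing cells (y axis), with all gene probes measured on both arrays in grey and the 13 core subunit probes in colour. The member probes, from -5.70 for the second Phf1 probe to 5.44 for Eed, lie along the line of equal level and inside the dotted lines of 2-fold; levels of different probes are not comparable as transcript amounts.

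Because paralogues replace one another in the complexes, the change in the ratio of their signals was also taken. It does not depend on a shift common to the whole array, but it does depend on a shift that varies with brightness. The log2 ratio of Ezh2 to Ezh1 differed by -0.05 ± 0.25 between the conditions and that of Rnf2 to Ring1 by -0.0065 ± 0.29. Neither ratio differed by more than its error. Among the Polycomb-like proteins, Phf19 to Phf1 differed by 0.54 ± 0.28, or 1.45-fold, Mtf2 to Phf19 by -0.34 ± 0.25 and Mtf2 to Phf1 by 0.20 ± 0.24. Each of these 3 values included a dim probe of Phf1 or Mtf2. With the brightest probe of each gene, Phf19 to Phf1 differed by 0.19 ± 0.29, Mtf2 to Phf19 by -0.25 ± 0.29 and Mtf2 to Phf1 by -0.06 ± 0.29. None of the 3 then exceeded its error, and the last had turned its sign. Mtf2 to Phf19 kept most of its difference, while its error had risen from 0.25 to 0.29. Eed to Suz12 differed by -0.11 ± 0.29.

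**Figure D3:**
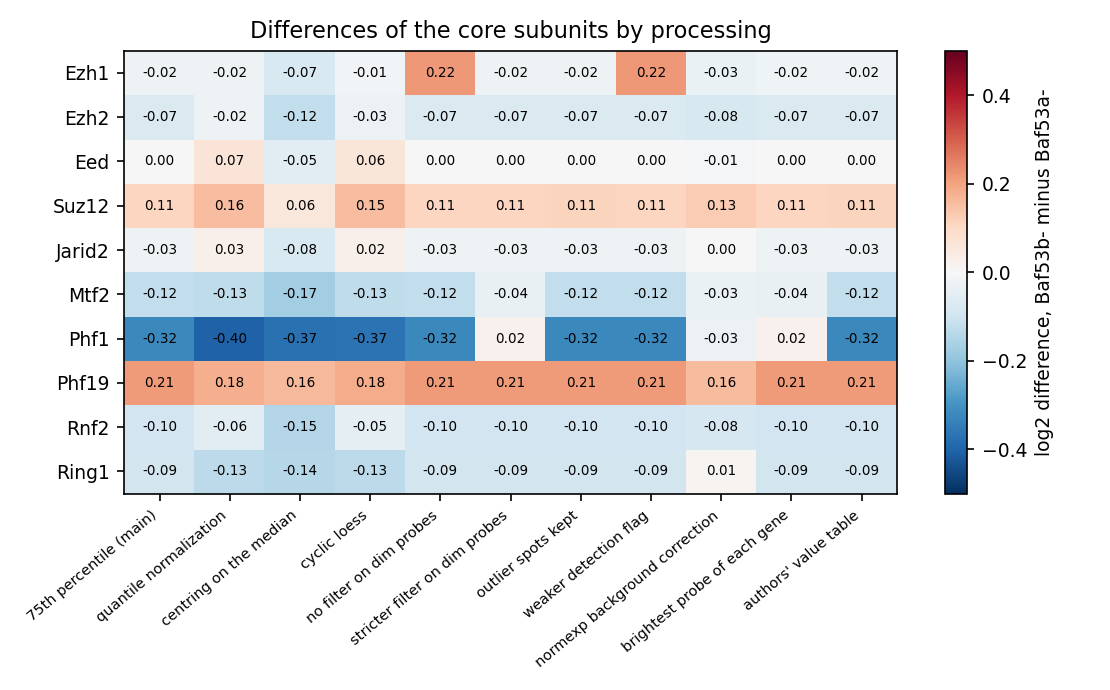
Log2 difference (Baf53b- minus Baf53a-expressing cells; colour and printed value) of each core subunit (y axis) under the processing used here and 10 alternatives (x axis). Suz12 and Phf19 stay above 0 in all columns, Ezh2, Mtf2 and Rnf2 stay below 0, and the other 5 genes have values on both sides. For genes read by 1 probe, several columns repeat the same value.

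The wider Polycomb machinery was read from lists of known subunits. In none of the lists below was a gene 2-fold apart. Of 8 further PRC2 partners, 7 were measured, 5 higher and 2 lower, with a median of 0.14, and Skida1 was not measured. They ran from Epop, which links PRC2 to elongin, at -0.08 to the histone chaperone Rbbp4 at 0.28, whose probes stood apart at -0.03 and 0.59. The Pcgf subunits, which define the PRC1 variants, were 4 higher and 2 lower of 6, with a median of 0.07, from Pcgf1 at -0.11 to Bmi1 at 0.18.

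Of 10 genes of canonical PRC1, the form that reads the PRC2 mark through Cbx proteins, 9 were measured, 5 higher and 4 lower. Their median was 0.01, from Cbx7, a chromodomain reader of the mark, at -0.21 to Scmh1 at 0.37. Of 22 genes of variant PRC1, 21 were measured, 14 higher and 7 lower, with a median of 0.02, from Fbrs at -0.21 to L3mbtl2 at 0.34. The enzymes that remove the Polycomb marks and their partners were 3 higher and 3 lower of 6, with a median of 0.02, from the H2A deubiquitinase Bap1 at -0.11 to its partner Asxl3 at 0.36. The medians of these 3 lists came to -0.04, -0.03 and -0.03 when the arrays were centred on the median. Canonical PRC1 also came to -0.05 and variant PRC1 to -0.03 with the brightest probe of each gene, and canonical PRC1 to -0.02 and the opposing enzymes to -0.03 with the stricter filter on dim probes, so the sign of these medians depended on the processing.

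Developmental regulators that Polycomb is known to hold silent in ES cells had a median difference of 0.13. Of the 26 measured among 28 listed, 19 were higher and 7 lower, or 73.1% higher against 49.1% of all genes. The share higher among genes of like brightness was not computed. The target genes ran from the proneural factor Neurog1 at -0.34 to the cardiac factor Tbx5 at 0.68. The median over all genes was -0.0032, but the dimmest probes of the array had a median of 0.10 as a whole, and many of the target genes gave weak signals. Tbx5 stood at -5.54 and -4.86, near the lowest level well above background on the arrays, -7.10 and -6.85. The list shares 4 genes, Gata4, Gata6, Sox17 and Foxa2, with the markers of primitive endoderm, and all 4 were higher, with a median of 0.24. The other 22 were 15 higher and 7 lower, with a median of 0.09.

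Markers of another cell type were higher beside the target genes. All 11 markers of primitive endoderm, the extraembryonic lineage that ES cultures can form, were higher, against 49.1% of all genes. These markers had a median of 0.28, from Sox7 at 0.08 to Dab2 at 0.40, and their summed linear level was 35.1 and 42.9. Like the other lists, this one was chosen with earlier results of these data known, so its count is a description and no independent support. The ES cell markers were 3 higher and 7 lower of 10, with a median of -0.05, from Esrrb at -0.15 to Sox2 at 0.07. This split depended on the scaling: 5 of the 10 were higher with quantile normalization and with cyclic loess, with a median of -0.01 in each. The summed level of the ES cell markers was 336 and 324. Such sums weight the bright probes: Lama1 and Lamb1 made 80.0% of the endoderm sum in Baf53a-expressing cells, and Dppa5a and Zfp42 made 66.5% of the ES cell sum. The part of endoderm cells and of probe brightness in these differences was not tested.

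**Figure D4:**
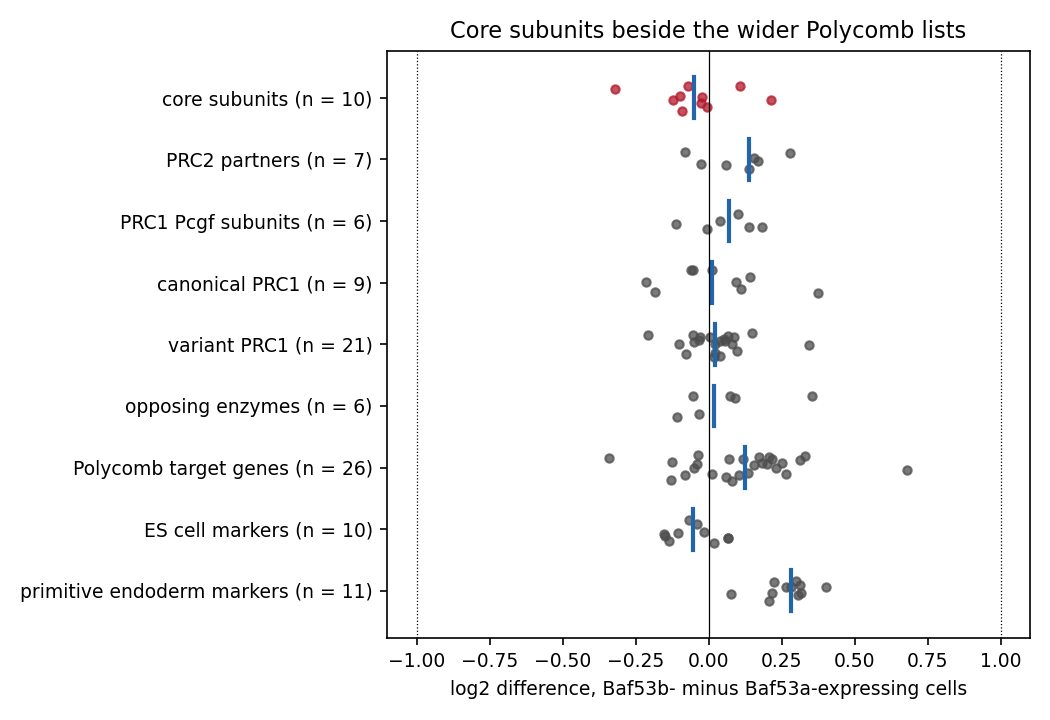
Log2 difference (x axis, Baf53b- minus Baf53a-expressing cells) of each measured gene (points) of the core subunits, the wider Polycomb lists and the ES cell and primitive endoderm marker lists (y axis), with the list median as a blue line. The neuron and fibroblast markers are not shown. The 10 core subunits lie from -0.32 to 0.21, the medians of the Polycomb lists between -0.05 and 0.14, and the 11 primitive endoderm markers all above 0.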

How the data were processed

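Total RNA (0.2 μg, Cy3-labelled) of each condition was hybridised to a mouse 1-colour Agilent array. Per the file headers, the authors used Feature Extraction 11.0.1.1 on the scans, and the processed signal of each spot was deposited as an intensity after background subtraction, without scaling between arrays. A second deposited file holds 30488 values, each a ratio of the probe signal to 1 number per array (1160 and 1126), as found by setting 30479 of them against the spots. It was used as an alternative.

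Control and outlier spots were left out, log2 signals were averaged per probe, and each array was centred on its 75th percentile. A probe was measured when at least 50% of its spots were well above background on both arrays. A gene took the mean of its measured probes. A bound for a probe seen on 1 array sets the bright level against the higher of the dim level and the lowest level well above background. The bound does not take in the software error. Probes were named by RefSeq accession through a GRCm38.p6 table, used for names only since the array design follows another build. Differences were taken between conditions and never between probes. The sums over marker lists add levels of different probes, which are not comparable as transcript amounts. The number of arrays, 1 per condition, limits the precision.

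The members and gene lists were chosen with earlier results of these data known. Named were all members, the genes with the highest and lowest difference in each list, and Actl6a and Actl6b. Other genes named (the Gata4, Gata6, Sox17 and Foxa2 overlap, Cbx6 for its probes, the brightest endoderm and ES cell markers and genes not measured) were named after their values were seen. Alternatives were quantile normalization, median centring, cyclic loess, outlier spots kept, dim probes kept or filtered more strictly, a weaker detection flag, normexp on median spot signals (offset 50), the brightest probe per gene and the authors' table. Python 3.11.15, numpy 2.4.6, pandas 2.3.3, R 4.3.3 and limma 3.58.1 were used, and the steps were tested on simulated data.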

Additional observations from a re-analysis of the deposited data

How the results depend on the processing

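No core subunit was 2-fold apart under any of the 10 alternatives, while the number of such genes over the array ran from 0 (stricter filter on dim probes, and normexp) to 526 (no filter). The median difference of the members was below 0 in each, from -0.10 with median centring to -0.02 with normexp. The number of members higher in Baf53b-expressing cells, 2 in the values reported, was 4 with quantile normalization and 4 with cyclic loess, through Eed and Jarid2. It was 3 with no filter and with the weaker detection flag (Ezh1), with the stricter filter and with the brightest probe (Phf1), and with normexp (Ring1), and 2 otherwise. The change of the Ezh2 to Ezh1 ratio, -0.05, was -0.29 with no filter and -0.29 with the weaker flag, both of which let in the dim Ezh1 probe. It came to 9.7e-05 with quantile normalization and -0.02 with cyclic loess. Some list medians stayed above 0 in every processing but moved. That of the further PRC2 partners went from 0.14 to 0.06 with the brightest probe. Median centring took the Pcgf subunits from 0.07 to 0.02, the target genes from 0.13 to 0.07 and the fibroblast markers from 0.09 to 0.04. The median of the primitive endoderm markers ran from 0.23 to 0.30. Other medians changed sign: out of 11 ways of processing, canonical PRC1 was above 0 in 8, variant PRC1 and the opposing enzymes in 9. The median of the neuron markers was above 0 in 2 and that of the ES cell markers in 0. No paired analysis was possible because each condition had 1 array, and for the same reason no replicate could be left out. A dim probe carries the larger error: the SD of all differences fell from 0.324 in the dimmest to 0.108 in the brightest of the 5 brightness groups.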

Other observations

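Probes of the same gene did not always give the same difference. Over the member and wider lists, 32 genes had at least 2 measured probes, and the median spread between the probes of a gene was 0.123. The spread was over 0.5 for 3 genes: Phf1 (-0.66 to 0.02), Rbbp4 (-0.03 to 0.59) and Cbx6 (-0.07 to 0.56), a Cbx protein of canonical PRC1. Where these probes lie in the transcripts was not analysed here.

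Of 8 neuron markers, 7 were measured, 3 higher and 4 lower in Baf53b-expressing cells, with a median of -0.04, from Syn1 at -0.15 to Snap25, a protein of synaptic vesicle release, at 0.35. Their median turned to 0.12, with 4 of 8 higher, with no filter on dim probes and with the weaker detection flag. The fibroblast markers were 5 higher and 1 lower of the 6 measured, with a median of 0.09, from Thy1 at -0.15 to Acta2 at 0.40.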
